A study of Homo sapiens with 6 samples.

Results

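RNA-seq counts of 10 genes were examined in PANC-1 cells, an established human pancreatic adenocarcinoma line, after silencing of the RNA methyltransferase METTL16. The genes were the pocket proteins RB1, RBL1 and RBL2, the MuvB subunits LIN9, LIN37, LIN52 and LIN54, and the transcription factors MYBL1, MYBL2 and FOXM1. They were chosen by name for their roles, with earlier results of these data known. All 10 were found among the 58735 genes of the deposited table. The 6 samples were 3 cultures transfected with control siRNA (si-NC) and 3 with siRNA against METTL16 (si-METTL16), described by the study as biological triplicates. The transfection label of the si-NC samples reads WT, and the titles, which name si-NC, were followed. The methods call the transfection stable, the sample labels do not, and the siRNA used for sequencing is not named among the several designed against METTL16. The labels name no other treatment that differed between the groups, and no separate group of untransfected cells was analysed here.

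Pocket proteins hold E2F transcription factors and their promoters in a repressed state until cyclin-dependent kinases phosphorylate them. RBL1 and RBL2, together with a repressor E2F, its DP partner and the MuvB core, form the DREAM complex, which silences cell cycle genes in resting cells. In cycling cells the same MuvB core leaves the pocket proteins, binds MYBL2 (B-MYB) and then recruits FOXM1, and now activates genes of G2 and mitosis. LIN54 is the subunit that contacts DNA, at the cell cycle genes homology region (CHR). LIN52 carries the surface that binds the pocket protein or MYBL2, LIN9 takes part in binding MYBL2, and LIN37 is needed for repression.

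Promoter stretches of 5 members are shown because they hold the short words through which these complexes read DNA. Of these 5 genes 4 rose after silencing, which entered the choice, and a link between words and rising was not tested. These 5 stretches were taken from RefSeq start sites (GRCh38.p14), lie wholly before the start site used and read 5′ to 3′ on the gene's strand. By the deposited gene spans, only the RBL1 stretch lies outside its gene. Those of MYBL2, LIN54, LIN9 and LIN52 lie within the span, because the start sites used are internal to it. In GENCODE v44, LIN52 starts at 74084956, after its stretch. Capitals mark an E2F word or a CHR word. The E2F words searched were TTGGCGC, then also TTCGCGC, further the form TTGGCGG, and lastly the form TTCCCGC. The CHR words were TTTGAA and the variant form TTCGAA.
RBL1, chr20:37096005-37096033, minus strand: agctgcagattTTCGCGCgctTTGGCGCa
MYBL2, chr20:43667062-43667090, plus strand: cgccgacgcgcTTGGCGGgagatagaaaa
LIN54, chr4:83010907-83010934, minus strand: gcccttgtgcgTTTGAAggTTGGCGGgg
LIN9, chr1:226309208-226309235, minus strand: cgagctccgcaTTCGAAcctccctcgca
LIN52, chr14:74084921-74084949, plus strand: ggaacctcgttTTCCCGCcgacggttggc

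RBL1 holds a pair of E2F words, at 25 to 19 and 15 to 9 bases before its start. The E2F word of MYBL2 lies 41 to 35 bases before the start. In LIN54 a CHR word and an E2F word stand side by side, at 89 to 84 and 81 to 75 bases before the more upstream of the start sites used. LIN9 has 3 windows, with an E2F word in 1 of them and CHR words in another. Both strands of windows from 250 bases before to 50 bases after the start were searched, and the words of the E2F and CHR sets do not overlap in these stretches. Of the members, 8 had a window, 5 with an E2F word and 4 with a CHR word, beside 27% and 14.8% of the 10386 tested genes with a window. Over all 35116 windows, E2F words were found in 13.8% and CHR words in 16.4%. The RB1 window, at an internal start site, held neither, although RB1 rose. RBL2 and LIN37, which are not among the genes that rose, held a CHR word only. That of LIN37 lies 182 to 177 bases before a start and that of RBL2 after a start, and neither is shown. MYBL1 and FOXM1 had no window in the table used.

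METTL16 itself had 1546, 1641 and 1764 counts in si-NC and 571, 528 and 627 counts in si-METTL16 cells, with no overlap between the groups. Library totals lay between 15725298 and 18054436 counts, at which 3 counts equal 0.166 to 0.191 CPM (counts relative to the library total). Of the pancreatic duct epithelium markers, 6 of 7 in si-NC and 5 of 7 in si-METTL16 cells had a mean FPKM (counts per gene length and library total) of at least 1, and their summed FPKM, mostly KRT8 and KRT18, was 352 to 454 and 361 to 401. Of these 7 markers 4 were called lower, KRT19 at a log2 fold change of -1.40, CDH1 at -1.09, KRT7 at -0.84 and SOX9 at -0.25 (edgeR adjusted p = 0.00111, 0.00594, 0.0117 and 0.00987), and none was called higher. Summed markers of endothelium and acinar cells were at most 0.0823 FPKM, and those of leukocytes lay at 1.19 to 1.99 FPKM, with CD3E at 0. Of 5 fibroblast markers, only COL1A1 reached 1 FPKM, and their sum was 25.1 to 29.0 in si-NC and 60.9 to 64.5 in si-METTL16 cells. The part of these markers in the results was not tested. RNA was taken from whole cultures, so a larger share of cells in a cell cycle phase and more RNA per cell cannot be told apart.

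After METTL16 silencing, 7 of the 10 genes rose and none fell at an adjusted p under 0.05, while 18.4% of all 15089 tested genes were called higher, 17.5% lower and 35.9% in either direction by the same rule. The risers were RB1, RBL1, LIN9, LIN54, MYBL1, MYBL2 and FOXM1. RBL2, LIN37 and LIN52 did not pass the test. The median log2 fold change of the 10 genes was 0.92, beside 0.00 over all tested genes. Since the 10 genes were chosen with earlier results of these data known, this contrast is a description. The test was edgeR's quasi-likelihood test on raw counts with Benjamini-Hochberg adjustment over all tested genes, and all 10 genes passed the filter on low counts. The same 7 genes had groups that did not overlap, as had 25.7% of all tested genes in the upward direction and 50.9% in either direction. The count of 7 was the same under all 15 alternatives tried.

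**Figure D1:**
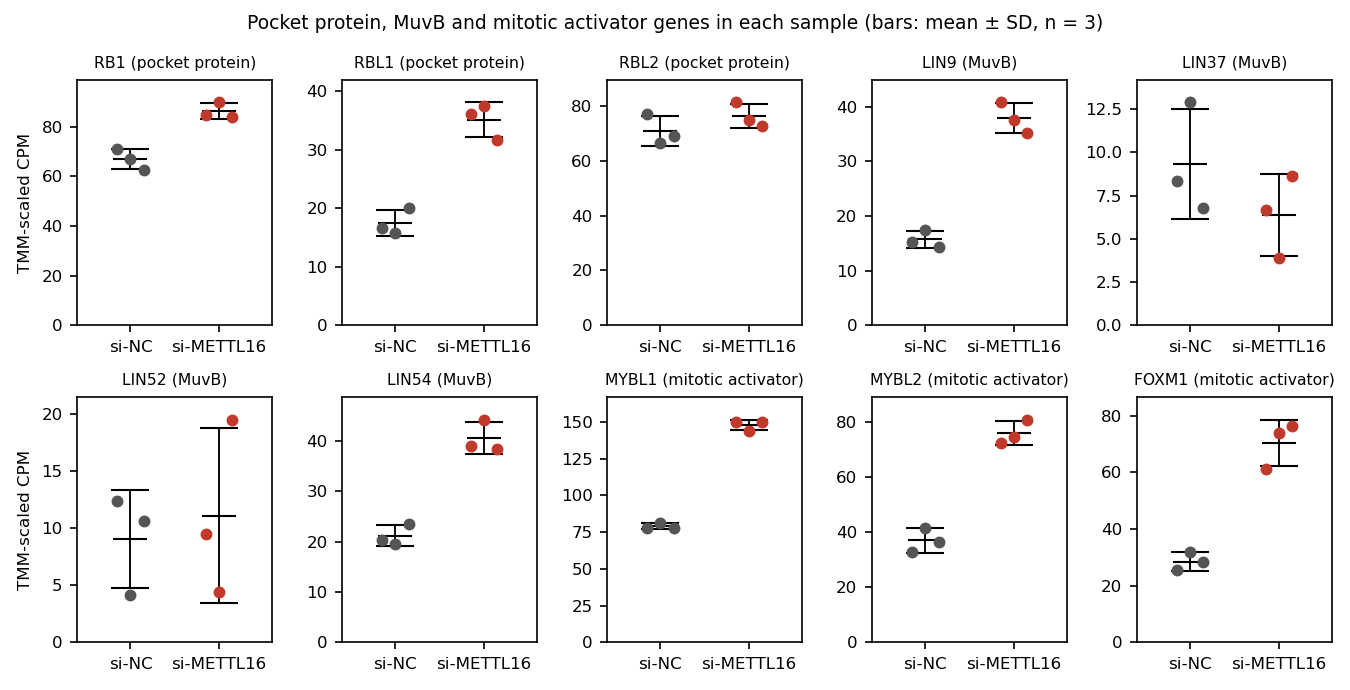
TMM-scaled CPM of the 10 genes in each of the 6 samples (vertical axis, linear from 0), si-NC in grey and si-METTL16 in red, with mean ± SD (n = 3). For 7 genes every red point lies above every grey point, while the points of RBL2, LIN37 and LIN52 overlap.

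Among the pocket proteins, RBL1 moved most. RBL1 (ENSG00000080839, chromosome 20 from 36996349 to 37095995) had 281, 268 and 351 counts in the si-NC samples and 593, 584 and 570 in the si-METTL16 samples. On the scaled level this was 16.6, 15.8 and 20 CPM against 36.1, 37.4 and 31.7 CPM. Every silenced sample was above every control sample, and the RBL1 level rose 2.01-fold (log2 fold change 1.00, SE 0.12, edgeR adjusted p = 0.00099). RBL1 is the pocket protein known to accumulate in cycling cells, and its gene is an E2F target. A lncRNA on the opposite strand shares 213 bases with RBL1 and had at most 3 counts in any sample.

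RB1, the retinoblastoma protein and main brake on activating E2Fs, rose by less. RB1 (ENSG00000139687, chromosome 13 from 48303726 to 48599436) had 70.8, 67.1 and 62.7 CPM in si-NC and 84.5, 89.8 and 83.9 CPM in si-METTL16 cells. The groups did not overlap, and the level rose 1.29-fold (log2 fold change 0.36, SE 0.07, edgeR adjusted p = 0.00756). LPAR6 and RCBTB2 lie on the opposite strand within the RB1 span. LPAR6 had a log2 fold change of 0.13 (edgeR adjusted p = 0.733) and RCBTB2 of 0.04 (edgeR adjusted p = 0.905). Whether reads were counted by strand is not given in the sources used here, so reads of overlapping genes cannot be told apart.

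RBL2, the pocket protein that predominates in resting cells, was the member nearest to no difference. RBL2 (ENSG00000103479, chromosome 16 from 53433977 to 53491649) had 77.0, 66.4 and 69.0 CPM in si-NC and 81.3, 75.0 and 72.7 CPM in si-METTL16 cells. The groups overlapped, and the log2 fold change was 0.11 (SE 0.08, edgeR adjusted p = 0.35) with a 95% interval from -0.09 to 0.30. This interval runs from 0.941-fold to 1.23-fold, and so holds no change of the size seen for RBL1. RBL2 shares 609 bases with AKTIP on the opposite strand, and AKTIP fell with a log2 fold change of -0.93 (edgeR adjusted p = 0.00323), from 271, 350 and 394 counts to 159, 157 and 202.

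The make-up of the pocket protein family was compared through a ratio within each sample, which does not depend on how libraries are scaled. The log2 ratio of RBL1 to RBL2 FPKM was -1.60, -1.46 and -1.17 in the si-NC samples. In the si-METTL16 samples this log2 ratio was -0.56, -0.39 and -0.58. Its mean went from -1.41 ± 0.22 to -0.51 ± 0.11 (SD, n = 3), a difference of 0.90 (two-sided exact permutation test, p = 0.1, which is the lowest value possible with 3 samples in each group). RBL1 made up 16.9% ± 2.31 of the summed pocket protein FPKM in si-NC and 25.7% ± 1.12 in si-METTL16 cells (SD, n = 3). The share of RBL2 was 44.5% ± 1.30 and 36.5% ± 1.53 (SD, n = 3), with no overlap between groups. A share falls when the other genes of the family rise, so this is no separate result for RBL2. Its own mean FPKM was 7.02 in si-NC and 7.45 in si-METTL16 cells, with overlapping groups. RB1 held 38.6% ± 1.94 and 37.8% ± 1.42 (SD, n = 3), and its groups overlapped. Which pocket protein holds the largest share depends on the gene lengths used, since with merged-exon lengths, chosen after the data were seen, RB1 held 47.1% and 46.7%, RBL2 39.5% and 32.8% and RBL1 13.3% and 20.5%.

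**Figure D2:**
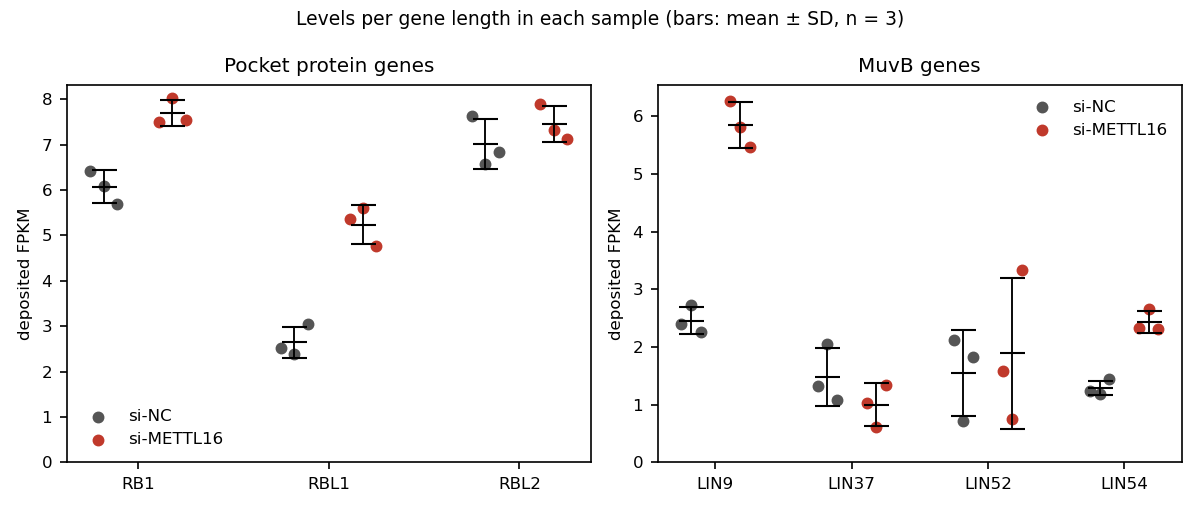
Deposited FPKM (vertical axes, linear from 0) of the pocket protein and MuvB genes in each sample, si-NC in grey and si-METTL16 in red, with mean ± SD (n = 3). RBL1 approaches RB1 and RBL2 in the si-METTL16 samples, LIN9 and LIN54 separate by group, and LIN37 and LIN52 spread widely within each group.

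The 4 MuvB genes did not move as a block. LIN9 and LIN54 rose, with 2 of 4 MuvB genes called, beside 18.4% of all tested genes called higher. LIN37 and LIN52 were the least precisely measured of the 10 genes, and no direction can be given for either.

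LIN9 (ENSG00000183814, chromosome 1 from 226231149 to 226309869) had 259, 295 and 252 counts in si-NC and 669, 587 and 633 in si-METTL16 cells. Its scaled level was 15.7 ± 1.54 and 37.9 ± 2.78 CPM (SD, n = 3). The lowest silenced sample lay above the highest control, and LIN9 rose 2.41-fold (log2 fold change 1.27, SE 0.11, edgeR adjusted p = 0.000274). No annotated gene overlaps LIN9.

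LIN54 (ENSG00000189308, chromosome 4 from 82909973 to 83012926) had 345, 332 and 412 counts in si-NC and 640, 690 and 690 in si-METTL16 cells. Its scaled level was 21.2 ± 2.07 and 40.5 ± 3.22 CPM (SD, n = 3), with the groups apart. The DNA-binding subunit thus rose 1.92-fold (log2 fold change 0.94, SE 0.11, edgeR adjusted p = 0.000748). THAP9 overlaps its end on the opposite strand and was not called (log2 fold change -0.50, edgeR adjusted p = 0.338), with 37 to 134 counts per sample.

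LIN37 (ENSG00000267796, chromosome 19 from 35748361 to 35754519) had 141, 219 and 119 counts in si-NC and 109, 61 and 155 in si-METTL16 cells. The groups overlapped, and the log2 fold change of -0.54 (SE 0.34, edgeR adjusted p = 0.248) had a 95% interval from -1.33 to 0.25. The deposited table also holds AD000671.1, a protein-coding gene (ENSG00000188223) whose span covers all of LIN37 on the same strand. AD000671.1 had 24, 20 and 35 counts in si-NC and 19, 52 and 25 in si-METTL16 cells, and its highest count fell in the sample with the lowest LIN37 count, si-METTL16 replicate 2. Summed over both genes, the counts were 165, 239 and 154 against 128, 113 and 180, which still overlapped.

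LIN52 (ENSG00000205659, chromosome 14 from 74084796 to 74201235) had 209, 71 and 185 counts in si-NC and 155, 69 and 351 in si-METTL16 cells. The spread within each group exceeded the difference between them, and the log2 fold change of 0.31 (SE 0.57, edgeR adjusted p = 0.704) had a 95% interval from -1.02 to 1.64. ALDH6A1, which starts within 2 kb of LIN52 on the opposite strand, was not called either (log2 fold change -0.16, edgeR adjusted p = 0.591). The coefficient of variation of the LIN52 level was 47.6% in si-NC and 69.1% in si-METTL16 cells. The 1932 tested genes with a mean within 1.5 times that of LIN52 had median values of 12.1% and 12%. The lowest LIN52 count of each group was in replicate 2. The sign of the LIN52 value turned on single samples, at -0.38 without si-METTL16 replicate 3 and -0.04 without si-NC replicate 2.

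All 3 activators rose, each with groups that did not overlap. Of all tested genes 18.4% were called higher, and 25.7% had groups apart in this direction. FOXM1, the forkhead factor of the late G2 and mitotic programme, had a log2 fold change near that of LIN9, and LIN9 was the higher of both without si-NC replicate 1 (1.25 against 1.22), si-METTL16 replicate 2 (1.27 against 1.26) or si-METTL16 replicate 3 (1.32 against 1.24). FOXM1 (ENSG00000111206, chromosome 12 from 2857681 to 2877155) had 25.4, 31.9 and 28.3 CPM in si-NC and 61.0, 73.9 and 76.2 CPM in si-METTL16 cells. Its level rose 2.47-fold (log2 fold change 1.30, SE 0.12, edgeR adjusted p = 0.000398), which ranks 422 from the top among 15089 tested genes. On the opposite strand RHNO1, which reads away from the FOXM1 start, shares 917 bases with it and ITFG2 shares 2112 bases with its end. RHNO1 had 308 to 386 counts in si-NC and 384 to 458 in si-METTL16 cells (log2 fold change 0.39, edgeR adjusted p = 0.0513), and was called under 5 of 14 alternatives. ITFG2 had a log2 fold change of 0.76 (edgeR adjusted p = 0.0354), a call lost under 6 of 12 alternatives, among them leaving out si-NC replicate 1 or 3 or si-METTL16 replicate 1 or 2. TULP3, which starts close to FOXM1 on the other strand, fell with a log2 fold change of -0.40 (edgeR adjusted p = 0.0316), a call lost under 5 of 14 alternatives, among them leaving out si-NC replicate 2 or 3 or si-METTL16 replicate 1 or 2.

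MYBL2, itself a classical E2F target and the MYB protein that joins MuvB, had 554, 707 and 640 counts in si-NC and 1188, 1164 and 1454 in si-METTL16 cells. MYBL2 (ENSG00000101057, chromosome 20 from 43667019 to 43716496) stood at 37.0 ± 4.46 and 76.0 ± 4.40 CPM (SD, n = 3). The lowest silenced sample lay well above the highest control, a 2.05-fold rise (log2 fold change 1.04, SE 0.10, edgeR adjusted p = 0.000484). No annotated gene overlaps MYBL2 or MYBL1.

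MYBL1 (A-MYB), a relative best known from male germ cells, was abundant in these cells and the most evenly measured of the 10 genes. MYBL1 (ENSG00000185697, chromosome 8 from 66562175 to 66614247) had 78.0, 81.4 and 77.6 CPM in si-NC and 150, 144 and 150 CPM in si-METTL16 cells. Its coefficient of variation was 2.68% and 2.48%, and the level rose 1.88-fold (log2 fold change 0.91, SE 0.06, edgeR adjusted p = 0.000121). The log2 ratio of MYBL2 to MYBL1 FPKM was 0.11, 0.40 and 0.28 in si-NC and 0.31, 0.41 and 0.47 in si-METTL16 cells. These ratios overlapped, with a difference of 0.14 (two-sided exact permutation test, p = 0.2) that was 0.06 without si-NC replicate 1. Relative to the mean log2 FPKM of the 4 MuvB genes, MYBL2 stood at 2.75 ± 0.27 in si-NC and 3.34 ± 0.33 in si-METTL16 cells (SD, n = 3). This log2 difference of 0.58 is given without a test because it averages over members. The mean includes LIN37 and LIN52, for which no direction can be given. LIN9 rose more than MYBL2 (log2 fold change 1.27 against 1.04) and LIN54 slightly less (0.94). The difference therefore shows no gain of MYBL2 common to LIN9 and LIN54, and its ratio to each of them was not tested.

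**Figure D3:**
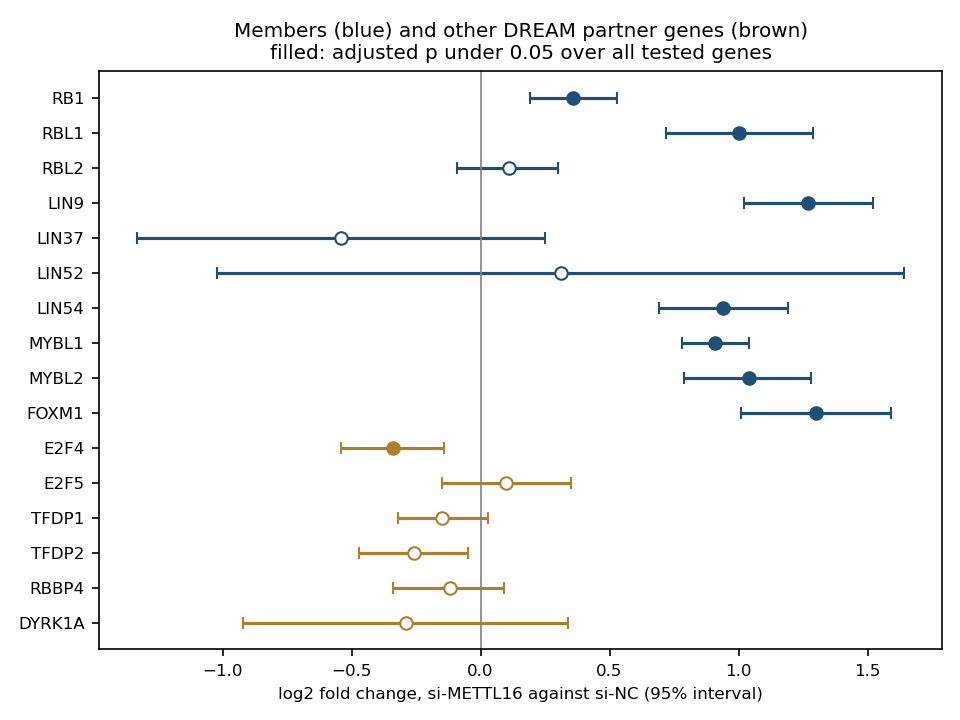
Log2 fold change of si-METTL16 against si-NC (horizontal axis) with 95% intervals from edgeR for the 10 genes (blue) and for 6 further genes of the DREAM complex or its assembly (brown), filled where the adjusted p is under 0.05. The intervals of LIN37 and LIN52 are wide and cross 0, that of RBL2 is narrow and crosses 0, and E2F4 is the only filled brown point.

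On the deposited FPKM scale, levels per gene length placed MYBL2 and MYBL1 above the other 8 genes in both groups. In si-NC cells MYBL2 had 10.7 ± 1.30, MYBL1 8.93 ± 0.236, RBL2 7.02 ± 0.547 and RB1 6.07 ± 0.362 FPKM (SD, n = 3), and each of these neighbours was separated from the next. RBL1, FOXM1 and LIN9 followed at 2.65, 2.65 and 2.46 FPKM and overlapped one another. LIN52, LIN37 and LIN54 came last at 1.55, 1.48 and 1.29 FPKM, again overlapping. In si-METTL16 cells the order was MYBL2 at 21.8, MYBL1 at 16.5, RB1 at 7.70 and RBL2 at 7.45 FPKM, where RB1 and RBL2 overlapped. FOXM1 at 6.45, LIN9 at 5.85 and RBL1 at 5.24 FPKM came next, each overlapping its neighbour. LIN54 at 2.44, LIN52 at 1.89 and LIN37 at 1.00 FPKM closed the list.

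The order below MYBL2 depends on the gene length behind the FPKM. The length that the deposited values imply for LIN37 is 6336 bases, above the 6159 bases of its whole span, and for FOXM1 it is 10816 bases, against 4919 bases of merged exons in GENCODE v44. Counts per merged-exon length and library total (RPKM), chosen after the data were seen, placed FOXM1 at 14.2 in si-METTL16 cells, close to RB1 at 13.3 and above RBL2 at 9.32. MYBL2 at 27.1 and MYBL1 at 20.3 stayed at the top of the si-METTL16 cells on this scale. In si-NC cells RB1, at 10.5 RPKM (9.81 to 11.1), then lay above RBL2 at 8.78 (8.23 to 9.55) and overlapped MYBL1 (10.8 to 11.3), and RBL1 moved from rank 5 to rank 9. A gene's fold change between groups does not depend on its length.

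Of 6 genes that complete the DREAM complex or its assembly, none was called higher and 1 was called lower, and their median log2 fold change was -0.20. With 18.4% of all tested genes called higher and 17.5% lower, counts this small do not set these 6 genes apart from the rest. E2F4, the repressor E2F of DREAM, fell from 52.5 to 41.4 mean CPM (log2 fold change -0.34, SE 0.09, edgeR adjusted p = 0.0193). The E2F4 call was lost without si-NC replicate 1 and without si-METTL16 replicate 1 or 2, and its adjusted p ranged from 0.00913 to 0.0565 over 14 alternatives, while its log2 value stayed between -0.41 and -0.29 with a sample left out. E2F5 had a log2 fold change of 0.10, the DP subunits TFDP1 and TFDP2 of -0.15 and -0.26, and the histone chaperone RBBP4, which is the remaining MuvB subunit, of -0.12. None of these 4 passed the test (edgeR adjusted p = 0.506, 0.168, 0.0573 and 0.341), and TFDP2 was called only without si-METTL16 replicate 3 (edgeR adjusted p = 0.0219). DYRK1A, the kinase whose mark on LIN52 assembles DREAM, had 794, 379 and 440 counts in si-METTL16 cells. Its log2 fold change of -0.29 (edgeR adjusted p = 0.43) became -0.71 and was called without si-METTL16 replicate 1 (edgeR adjusted p = 0.00602).

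Genes that act on the pocket proteins went both ways. Of 15 cyclins, CDKs and CDK inhibitors, 13 were tested, with 5 higher, 6 lower and a median log2 fold change of 0.17. The shares over all tested genes were 18.4% higher and 17.5% lower. CCNE1, the cyclin that drives the final phosphorylation of pocket proteins, rose with a log2 fold change of 0.86 (edgeR adjusted p = 0.00507). CDKN2C, an inhibitor of CDK4 and CDK6 and an E2F target, rose with a log2 fold change of 0.83 (edgeR adjusted p = 0.00125). CDKN1A, the CDK inhibitor p21, fell with a log2 fold change of -1.63 (edgeR adjusted p = 8.34e-05). CCND2 fell with a log2 fold change of -1.56 at only 5 to 24 counts per sample, and its call was lost without si-NC replicate 3 and without si-METTL16 replicate 1 or 3. CDKN2A had 0 counts in all 6 samples, and this locus is known to be deleted in PANC-1. The number of genes of this list called higher was 3 without si-NC replicate 1, 2 without si-NC replicate 2 and 3 without si-METTL16 replicate 1.

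Regulators of the MYBL2 and FOXM1 proteins were mostly higher. Of 6 such genes, 5 rose and none fell, with a median log2 fold change of 0.84. Over all tested genes 18.4% were called higher and 17.5% lower. CDK2 is also counted in the list of cyclins, CDKs and CDK inhibitors. Cyclin A2 and its kinases phosphorylate MYBL2 and FOXM1, and CCNA2, CDK1 and CDK2 had log2 fold changes of 1.25, 1.07 and 0.61 (edgeR adjusted p = 0.000162, 0.000527 and 0.0297). The CDK2 call was lost without any 1 of the si-NC replicates 1, 2 and 3, and without a filter on low genes. PLK1, which phosphorylates FOXM1 further, had a log2 fold change of 0.61 (edgeR adjusted p = 0.01). CCNF, which restrains MYBL2, had 1.26 (edgeR adjusted p = 0.000297). FZR1, which directs FOXM1 to degradation, had 0.07 (edgeR adjusted p = 0.548).

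The known targets of both complexes were higher. Of 30 G2 and mitotic genes that MuvB binds with MYBL2 and FOXM1, all 30 rose, with log2 fold changes from 0.58 to 2.16 and a median of 1.19. This list shares CCNA2, CDK1 and PLK1 with the list of regulators. UBE2C, a ubiquitin-conjugating enzyme of mitotic exit, and KIF2C, a kinesin that depolymerizes microtubules, were highest at 2.16 and 1.75 (edgeR adjusted p = 7.01e-05 and 6.95e-05). CKS2 and PLK1 were lowest at 0.58 and 0.61 (edgeR adjusted p = 0.00883 and 0.01). Of 25 genes of the G1/S transition that E2F and pocket proteins control, 22 rose, none fell and the median was 1.14. RRM2, a subunit of ribonucleotide reductase, and MCM10, a replication initiation factor, were highest at 2.71 and 1.76 (edgeR adjusted p = 0.000243 and 0.00021). MCM6, a subunit of the replicative helicase, had 0.24 and was not called (edgeR adjusted p = 0.115). By comparison 18.4% of all tested genes were called higher, and both lists were written with earlier results of these data known.

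**Figure D4:**
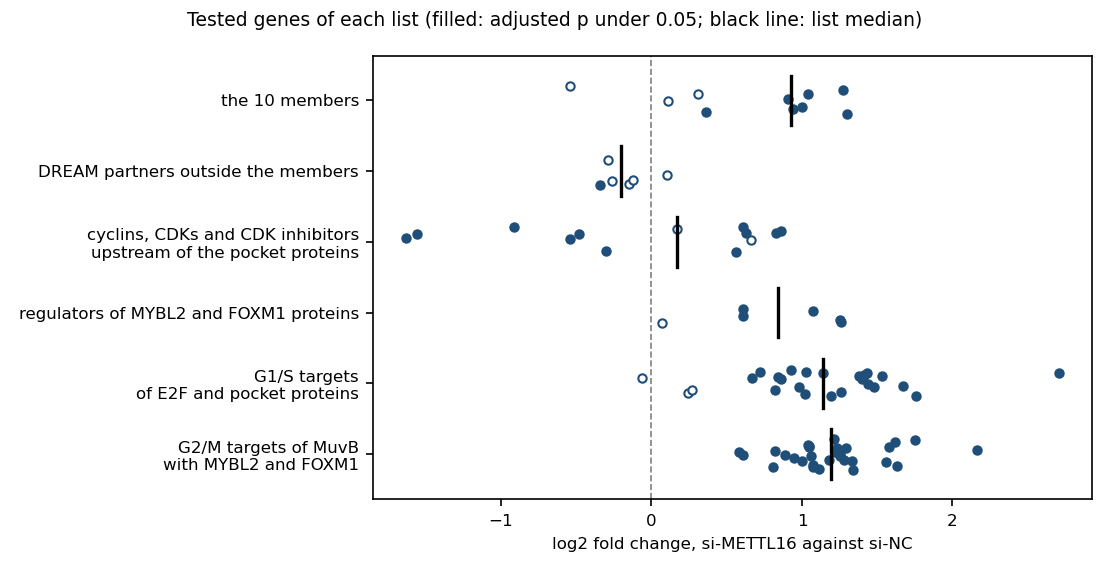
Log2 fold change of si-METTL16 against si-NC (horizontal axis) for the tested genes of the member set and of 5 gene lists, 1 point per gene with vertical jitter, filled where the adjusted p is under 0.05, and a black line at each median. The targets of both complexes and most members lie to the right of 0, the DREAM partners lie near or left of 0, and the upstream cyclins, CDKs and inhibitors fall on both sides.

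The promoter words shown above were also counted over the target lists. CHR words were found in 17 of the 25 G2 and mitotic genes with a window (68%), in 2 of 22 G1/S genes (9.09%) and in 14.8% of all tested genes with a window. E2F words were found in 19 of 22 G1/S genes (86.4%), in 8 of 25 G2 and mitotic genes (32%) and in 27% of tested genes. Both lists and some of the members, which were chosen for their roles, are known from the literature as E2F or CHR genes. These shares therefore describe the choice of genes. Among tested genes with a window, 1542 had a CHR word, of which 27.1% were called higher and 15.8% lower, beside 18.5% and 19% of those without. The 2807 genes with an E2F word were called higher in 22.9% and lower in 16.1% of cases, beside 18.6% and 19.4% of those without. In the 447 genes with both words, as in LIN54, 31.1% were called higher and the median log2 fold change was 0.15. A word in a window is a description of its letters and shows no binding.

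The genes whose pattern lay nearest to FOXM1 were sought by the root mean square distance of log2 CPM over the 6 samples, each gene set relative to its own si-NC mean. Among 7545 tested genes at or above the median level, TACC3, DLGAP5 and RRM1 were nearest, at distances of 0.0551, 0.0699 and 0.0767. TACC3 and DLGAP5 encode spindle proteins and RRM1 the large subunit of ribonucleotide reductase, with log2 fold changes of 1.28, 1.27 and 1.26. Within a distance of 0.15 there were 54 genes. For LIN37, the member with the lowest fold change, the nearest genes were BBX, AC023509.1 and RPS19BP1, at larger distances of 0.216, 0.225 and 0.249, and none lay within 0.15.

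**Figure D5:**
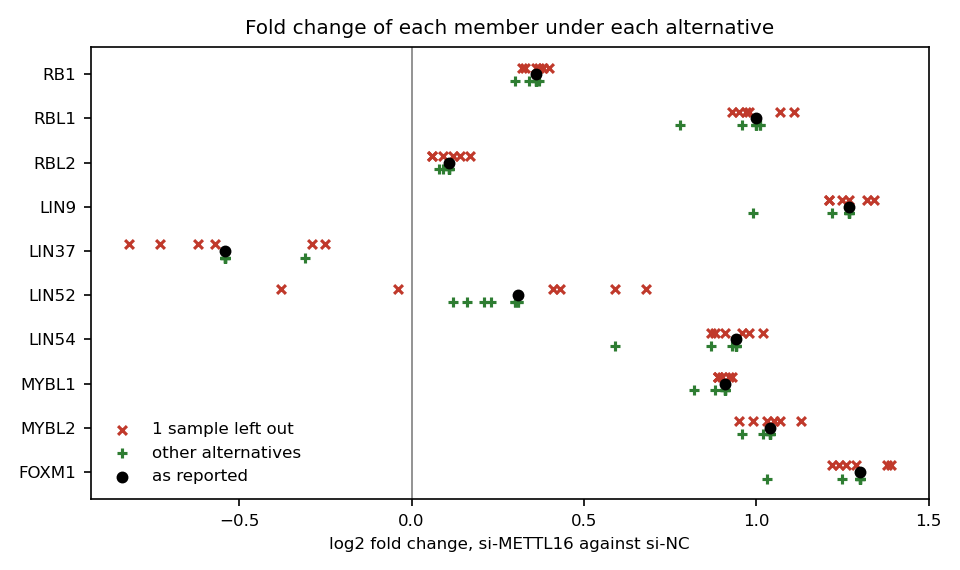
Log2 fold change of si-METTL16 against si-NC (horizontal axis) of each of the 10 genes as reported (black), with 1 sample left out (red crosses) and under the other alternatives (green). LIN52 is the only gene whose values fall on both sides of 0, from -0.38 to 0.68, while LIN37 runs from -0.82 to -0.25 and the 7 risers stay to the right of 0.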

How the data were processed

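Total RNA of 6 PANC-1 cultures (3 si-NC, 3 si-METTL16) was sequenced on an Illumina HiSeq 2500. The authors deposited raw read counts per gene and FPKM in a single table, and per the submitters' processing notes used HISAT2 (2.0.4), StringTie (1.3.0) and GRCh38/hg38. The annotation release, any filter and the use of strand are not given in the sources used here. FPKM equals the count divided by a fixed gene length and the sample's total count. The study's own comparison used limma. Date-like gene symbols (27) were restored from gene identifiers.

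Counts were tested with edgeR 4.0.16 in R 4.3.3 (TMM scaling, filterByExpr with a minimum count of 10, quasi-likelihood test of si-METTL16 against si-NC, Benjamini-Hochberg adjustment over 15089 genes, call at 0.05). The common biological coefficient of variation was 16.5%. FPKM served for levels, shares and ratios. Library totals were 15725298 to 18054436, and intervals on fold changes cover the spread between these samples only. Alternatives were a replicate block, each sample left out, no filter, DESeq2 size factors, a minimum of 10 counts per sample, DESeq2 1.42.0, limma 3.58.1 on voom values and on log2(FPKM + 1) or log2(FPKM + 0.1), and a threshold of 0.01. The pipeline was tested on simulated data for this comparison over 14862 genes. There 82 of 100 genes changed by 1 on the log2 scale and 95 of 99 changed by 1.5 were called, as were 16 unchanged genes. Far fewer genes were changed in this simulation than were called in the data, and genes of low count were not among them. No pair of samples had duplicate counts.

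The members and gene lists were chosen with earlier results of these data known. Named genes were the members, METTL16, the 2 highest and 2 lowest of each list (all genes of a list of up to 6), genes that overlap a member or start within 2 kb of it on the other strand, and the 3 genes nearest in pattern to the members with the highest and the lowest fold change. Of these, overlapping pseudogenes and non-coding genes with few counts are mostly left unnamed. A gene that this rule names is not reported here. Other genes were chosen as examples after their values were seen. The spans printed for the members are as deposited. Spans used for overlaps, strands and merged exons came from GENCODE v44, and promoter windows and their sequences from RefSeq (GRCh38.p14).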

Additional observations from a re-analysis of the deposited data

How the results depend on the processing

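The 7 members called higher were called under all 14 alternatives that gave them a test, and RBL2, LIN37 and LIN52 under none. Over these alternatives the log2 fold change of RB1 lay between 0.30 and 0.40 and that of FOXM1 between 1.03 and 1.39. LIN52 reversed to -0.04 without si-NC replicate 2 and to -0.38 without si-METTL16 replicate 3, with a range of -0.38 to 0.68 when each sample was left out. Leaving out each sample gave 0 to 2 DREAM partners called lower, 2 to 5 upstream cyclins, CDKs and inhibitors called higher, and 2187 to 2357 genes higher and 1972 to 2190 lower in all. A threshold of 0.01 left 1665 genes higher and 1370 lower, 0 DREAM partners lower, 2 upstream genes higher and 3 lower, and 3 regulators of MYBL2 and FOXM1 higher. Without the filter on low genes 2 upstream genes were called higher. The cause of these shifts was not tested.

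Samples of the same replicate number had correlations of their deviations from the group means of 0.0253, 0.0371 and 0.0298, too low to take the numbers as pairs, although every sample correlated best with its own number, a hint from the data and not the design. With a replicate block 5013 genes were called, of which 4731 were among the 5418 called without it, and the member calls stayed at 7 higher and 0 lower. The within-group spread of LIN37 (34% and 37%) and LIN52 (47.6% and 69.1%) was above the 12% to 13.8% median of genes with a like mean, and at this spread a change of either gene of the size seen for RB1 was not detectable.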
